A study of Mus musculus with 42 samples.

Results

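The tumors of this series divide into 2 sets along their replicate numbers, and the difference between these sets, with treatment taken into account, is described here across genes. The early set holds isotype control replicates 1 and 2, aPD1 replicates 1 to 3, aPD1 + aGMCSF replicates 1 to 5, and replicates 1 to 6 of both aPD1 + aIL2RB and aPD1 + aGMCSF + aIL2RB, 22 tumors in all. The late set holds the other 20 of the 42 tumors, namely 3 isotype control, 3 aPD1, 4 aPD1 + aGMCSF, 5 aPD1 + aIL2RB and 5 aPD1 + aGMCSF + aIL2RB tumors. The division was chosen by the expression values of these same tumors, so every late minus early difference is given as a description, without a test. The sample labels number the tumors as biological replicates and give no date, run, site or operator that separates the sets. In the order of deposition the set switched exactly 1 time, after tumor 22, and what the switch stands for cannot be told apart from these labels. Every treatment has tumors in both sets, which allowed each difference to be read within the 5 treatments.

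All tumors were grown from MC38, a mouse colon carcinoma cell line, injected under the skin of female F1 mice of CC075/UncJ and C57BL/6J aged 8 to 12 weeks. Mice received the GM-CSF blocking antibody aGMCSF (100 μg), the IL-2 receptor beta blocking antibody aIL2RB (200 μg), both, or the matching isotypes at intervals of 3 days from engraftment. Once a tumor had reached 75 to 110 mm3 the mouse was given a single 200 μg dose of aPD1, a checkpoint antibody, or its isotype control, and the tumor was taken 48 h later. Every mouse thus shared genotype, sex and cell line, and the groups are limited to 1 transplanted line in 1 F1 cross.

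A tumor growing under the skin borders several normal tissues. Subcutaneous fat in female mice contains mammary ducts, whose luminal cells use the simple keratins of Krt8, Krt18 and Krt19, and a thin sheet of skeletal muscle runs beneath the skin. Blood brings erythrocyte precursors and reticulocytes that still hold globin mRNA, fibroblasts lay down collagen within the tumor, and T cells infiltrate it. Each of these cell types has genes that tumor cells hardly use, and the bulk level of such genes reads the cell type's RNA share. The lists used below also hold genes with wider use, so a summed level need not read the content of fat, blood or stroma. In bulk tissue, fewer cells of a type and less RNA per cell cannot be told apart.

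Sequencing depth was similar in both sets. Total counts ranged from about 7155460 to 23183700 with a median of 19737100 in early tumors and from about 15109200 to 24101600 with a median of 20366400 in late tumors. The lowest total was that of aPD1 + aGMCSF + aIL2RB replicate 4, an early tumor. The 5 rRNA genes took a median of 7.17% of counts early and 7.03% late, and the mitochondrially encoded genes 3.13% and 2.84%. Counts were recorded for a median of 20219.5 genes per early and 20051.5 genes per late tumor. Shisal2b, which marks MC38 cells, was present in every tumor, at 11.1 to 31.3 CPM (counts scaled to the size of the library) in early and 8.80 to 27.03 CPM in late tumors, and its log2 difference was -0.19 (SE 0.10).

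Across 16932 genes tested the median late minus early log2 difference was -0.0051, with an interquartile range of -0.13 to 0.09. At least 2-fold higher in late tumors, and higher in each of the 5 treatments, were 55 genes (0.325% of those tested), and 103 genes (0.608%) were at least 2-fold lower in the same way. The genes nearest the 2-fold threshold were Rpph1 at a log2 difference of 1.02 just inside and Gm10801 at 0.995 just outside on the higher side, and Cryab at -1.0004 just inside and Crocc2 at -0.99 just outside on the lower side. Without the requirement on direction the counts were 75 and 159. Many of these genes are scarce, since 27 of the 55 averaged under 1 CPM in late tumors and 52 of the 103 under 1 CPM in early tumors. Late and early tumors did not overlap within any of the 5 treatments for 6 genes, 4 with all late tumors above (0.0236%) and 2 with all late tumors below (0.0118%).

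The 4 genes above were Krt8, Krt18, Krt19 and Prlr. All 4 were scarce in early tumors and passed the filter on low counts mainly through the late tumors, so their separation is a description only. Krt8 (chromosome 15, 101996698 to 102004482, GRCm38) and its neighbor Krt18 (chromosome 15, 102028180 to 102032027) encode the paired keratins of simple epithelium, Krt19 (chromosome 11, 100140810 to 100148665) encodes a further luminal keratin, and Prlr (chromosome 15, 10177238 to 10349180) encodes the prolactin receptor. In the early tumors Krt8 lay between 0 and 0.365 CPM, with a median of 0.0673 CPM, no more than 8 counts per tumor and no count in 10 of 22. In the late tumors it lay between 0.579 and 7.83 CPM, with a median of 2.15 CPM and 13 to 165 counts. All 20 late tumors were above all 22 early tumors, and the log2 difference was 4.66 (SE 0.36). Prlr was separated in the same way, between 0 and 0.593 CPM early and between 0.801 and 6.26 CPM late, with a log2 difference of 4.36 (SE 0.39). Prlr had no count in 14 early tumors and at least 17 counts in every late one.

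Krt19 ranged from 0 to 0.730 CPM early and from 0.623 to 7.97 CPM late, and Krt18 from 0 to 0.913 CPM early and from 0.445 to 5.08 CPM late. Their log2 differences were 4.16 (SE 0.34) and 4.09 (SE 0.38). These ranges touched only across treatments, since 18 of 20 late tumors for Krt19 and 16 of 20 for Krt18 exceeded every early tumor. Values on either side of the border between the sets are given as a description, since the border was chosen on these tumors' expression values. Krt8 was at 0.365 CPM in isotype control replicate 2, the last early one, and at 3.58 CPM in replicate 3, the first late one. In aPD1 it was at 0.101 CPM in replicate 3 and 6.799 CPM in replicate 4. In aPD1 + aGMCSF replicate 5 it had no count, and in replicate 6 it was at 2.79 CPM. In both groups given aIL2RB, replicate 6 had no count, and replicate 7 was at 1.89 CPM without and 0.958 CPM with aGMCSF.

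**Figure D1:**
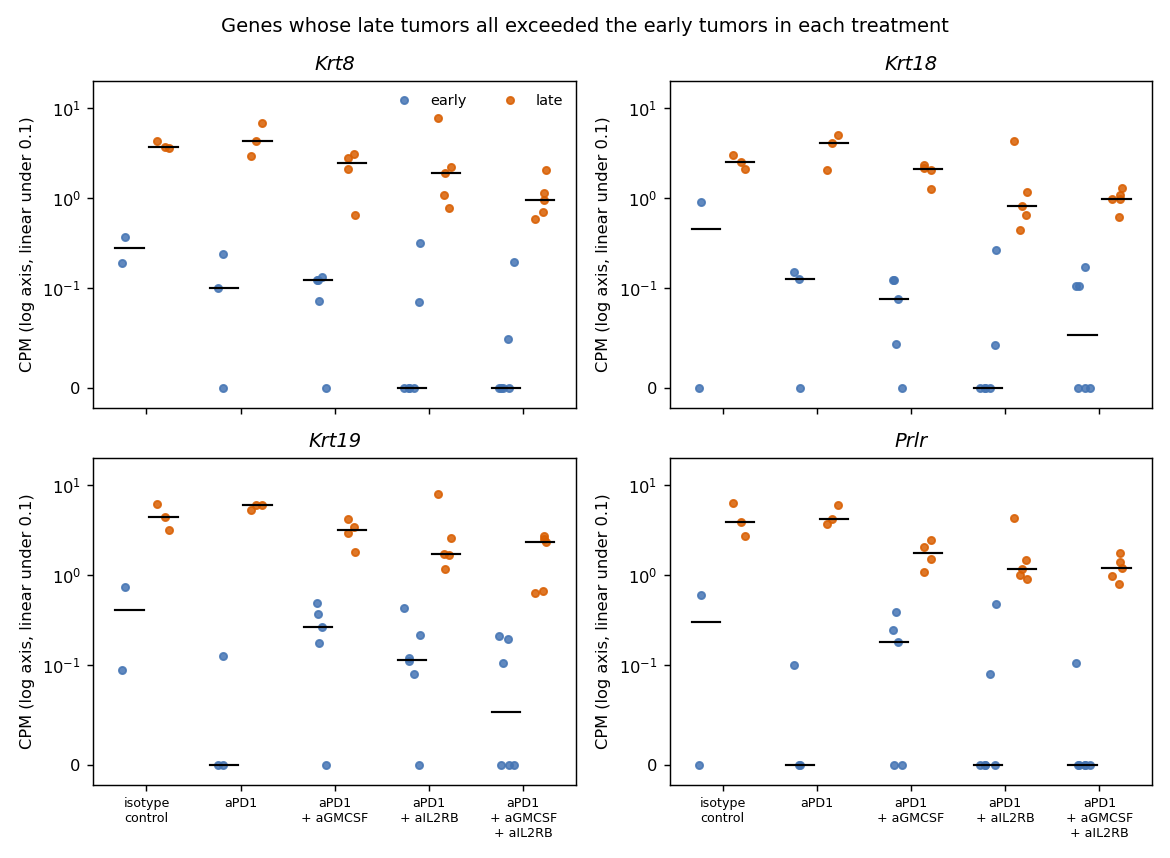
Level of Krt8, Krt18, Krt19 and Prlr in each tumor, in CPM on a log axis that is linear under 0.1, by treatment and set, with 1 point per tumor and a bar at the median. In every treatment the late tumors (orange) lie above the early tumors (blue), and the highest late Krt8 value is 7.83 CPM in aPD1 + aIL2RB.

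Of the 7 genes listed for MC38 and epithelium all were tested. With at most 8 counts of Krt8 in an early tumor, such members passed the filter on low counts mainly through the late tumors, so their count and median are not read as a result. Besides the keratins above, higher late in all 5 treatments were Krt7, at a median of 0.122 CPM early and 0.634 CPM late, and the epithelial adhesion molecule Epcam, at 0.0980 and 0.703 CPM. E-cadherin (Cdh1), which was well above 0 in both sets, was at a median of 2.64 CPM early and 3.75 CPM late, a log2 difference of 0.27 (SE 0.16), and was higher late in 4 treatments and lower in aPD1. Among genes outside the lists, singled out after their values were seen, the tight junction gene Cldn4 had no count in 21 of 22 early tumors and in 2 of 20 late tumors. Wfdc2, a secreted product of glandular epithelium, had the same numbers of tumors without a count.

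Of 9 mammary genes, 8 were in the count table and 3 passed the filter on low counts, Csn3, Prlr and Pgr. Early levels were at most 0.599 CPM for Csn3 and 0.593 CPM for Prlr, so these genes passed mainly through the late tumors, and the direction of the members that passed is not read as a result. Csn3, which encodes kappa-casein, ranged from 0 to 0.599 CPM early and from 0.103 to 7.01 CPM late. The other members stayed near 0 in both sets, with at most 6 counts per tumor for the beta-casein gene Csn2, at most 11 for Lalba and at most 10 for Elf5, a luminal transcription factor without a count in 20 early and 3 late tumors. Wap was not analysed here. Summed over the 8 genes the level was 0 to 2.04 CPM early and 1.70 to 15.1 CPM late. In the keratinocyte list, 7 of 10 tested members had a positive and 3 a negative difference, none past 2-fold with 1 direction in all treatments. The basal keratin Krt5 was at 1.24 (SE 0.70), Dsp, a desmosome gene, at 0.93 (SE 0.51) and the suprabasal keratin Krt1 at -1.43 (SE 1.03). The basal keratin Krt14 lay between 0 and 6.36 CPM early and between 0 and 7.36 CPM late. The part of adjoining gland or skin in these differences was not tested.

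The stretches of 250 bases that precede the RefSeq starts of 4 genes, in which the sets differed in opposite directions, are shown to let the reader see the promoters concerned (RefSeq, GRCm38.p6, each written 5′ to 3′ on the gene's strand). They are Krt8 at chr15:102004343-102004592 (minus strand), Krt18 at chr15:102027966-102028215 (plus strand), Myh1 at chr11:67199852-67200101 (plus strand) and Hbb-bs at chr7:103827929-103828178 (minus strand). Capitals mark the letters TATAAA or AGATAA, searched on both strands, with no overlap between matches.
Krt8: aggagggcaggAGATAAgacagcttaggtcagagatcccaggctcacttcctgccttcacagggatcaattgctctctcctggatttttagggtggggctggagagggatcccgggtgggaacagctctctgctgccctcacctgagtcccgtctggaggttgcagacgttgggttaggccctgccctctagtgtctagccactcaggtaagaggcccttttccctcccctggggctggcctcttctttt
Krt18: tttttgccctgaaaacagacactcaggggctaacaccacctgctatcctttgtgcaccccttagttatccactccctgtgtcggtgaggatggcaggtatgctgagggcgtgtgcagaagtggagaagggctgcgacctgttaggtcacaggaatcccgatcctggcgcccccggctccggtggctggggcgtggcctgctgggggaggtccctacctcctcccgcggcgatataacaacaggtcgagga
Myh1: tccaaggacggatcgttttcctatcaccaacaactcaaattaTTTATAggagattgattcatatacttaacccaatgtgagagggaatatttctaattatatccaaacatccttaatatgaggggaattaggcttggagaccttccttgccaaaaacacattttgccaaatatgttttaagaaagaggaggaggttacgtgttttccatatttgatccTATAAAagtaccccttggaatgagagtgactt
Hbb-bs: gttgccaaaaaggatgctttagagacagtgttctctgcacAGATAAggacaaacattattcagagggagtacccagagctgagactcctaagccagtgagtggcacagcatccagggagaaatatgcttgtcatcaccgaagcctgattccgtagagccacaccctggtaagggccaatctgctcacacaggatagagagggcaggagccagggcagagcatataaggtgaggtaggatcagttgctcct
TATAAA was found in 12.4% and AGATAA in 9.99% of 32851 such windows. The letters CAGCTG, found in 13% of windows, were in none of the 4. Myh1 had TATAAA 32 bases upstream of its start and again on the opposite strand 208 bases upstream, Hbb-bs had AGATAA 210 bases and Krt8 239 bases upstream, and the Krt18 window had none of these letters. A match describes the letters only.

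Skeletal muscle genes were lower in late tumors. Of 28 muscle genes 27 were tested, 25 had a negative difference, 16 were lower in all 5 treatments and 10 were at least 2-fold lower in that way, with a list median of -0.76. Over all genes tested 48.52% had a positive difference, 8.01% were lower in all 5 treatments and 0.608% at least 2-fold lower in that way. Scarce muscle members such as Tnni1, at a mean of 0.50 CPM early and 0.21 CPM late, passed the filter on low counts mainly through the early tumors. The muscle counts are therefore not read as a result. Myh1 (chromosome 11, 67200052 to 67224575), the myosin heavy chain of fast fibers, ranged from 1.799 to 105 CPM with a median of 17.5 CPM in early tumors. In late tumors it ranged from 0 to 34.4 CPM with a median of 0.391 CPM. Of 20 late tumors 16 were below every early tumor, and the log2 difference was -3.38 (SE 0.54). The 3 late isotype control tumors had no Myh1 count, whereas the 2 early ones were at 10.8 and 6.71 CPM. The highest late values were those of aPD1 replicate 6 at 34.4 CPM and aPD1 + aIL2RB replicate 11 at 11.4 CPM, and no other late tumor was above 4.41 CPM.

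Not all fast-fiber genes behaved alike. Myoglobin (Mb), the oxygen store of oxidative fibers, had no count in 12 of 20 late and 1 of 22 early tumors and a log2 difference of -3.56 (SE 0.58). Myh2, the myosin of fast oxidative fibers, lay between 0.888 and 37.5 CPM early and between 0 and 10.5 CPM late, with a difference of -3.19 (SE 0.55). Myh4, the myosin of the fastest glycolytic fibers, had medians of 10.9 CPM early and 6.02 CPM late, with single tumors up to 222 CPM early and 121 CPM late. Its fitted difference was 0.06 (SE 0.58), although the mean log2 CPM was lower in all 5 treatments. The muscle creatine kinase gene Ckm had a difference of -0.36 (SE 0.53), the alpha-skeletal actin gene Acta1 one of -1.28 (SE 0.53), the calcium pump gene Atp2a1 one of -0.48 (SE 0.53) and Actn3 one of 0.10 (SE 0.41).

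Sarcomere scaffold and Z-disc genes lay between these extremes. Titin (Ttn) was at a median of 75.0 CPM early and 14.3 CPM late, nebulin (Neb) at 21.2 and 3.26 CPM, and the calcium release channel Ryr1 at 5.69 and 0.645 CPM, with log2 differences of -1.39 (SE 0.38), -1.64 (SE 0.38) and -1.22 (SE 0.46). Among the 10 genes with the lowest differences and a mean of at least 1 log2 CPM, 5 are in the muscle list, Myh1, Ttn, Neb, Ryr1 and Acta1, and 3 more are used mainly in striated muscle. These were the actin-binding gene Xirp2 at -3.14 (SE 0.48), the LIM domain gene Fhl1 at -1.86 (SE 0.33) and Nrap at -1.80 (SE 0.36). Summed over all 28 muscle genes, levels ran from 40.7 to 1664 CPM early, with a median of 205 CPM, and from 21.9 to 828.8 CPM late, with a median of 56.1 CPM. The highest sum was that of aPD1 replicate 3. Without this tumor the list median was -0.47. The median difference within each treatment was -2.53 in isotype control, -0.54 in aPD1, -1.63 in aPD1 + aGMCSF, -0.67 in aPD1 + aIL2RB and -1.51 in aPD1 + aGMCSF + aIL2RB.

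Part of the adipocyte genes were higher in late tumors. Of 26 adipocyte genes 19 were tested, 14 with a positive and 5 with a negative difference, and 8 were higher in all 5 treatments. Scarce members such as Lep, Retn and Plin1, with at most 6, 8 and 10 counts in an early tumor, passed the filter mainly through the late tumors, so the count is not read as a result. Among the members with a negative difference were the fat cell transcription factor Cebpa at -0.32 and the insulin-responsive glucose transporter Slc2a4 at -0.30. Plin1, which coats the lipid droplet, had at most 10 counts in an early tumor and at least 6 in a late one. It ranged from 0 to 0.527 CPM early and from 0.302 to 1.89 CPM late, a log2 difference of 2.15 (SE 0.38), and 13 of 20 late tumors exceeded every early tumor. Adiponectin (Adipoq) lay between 0 and 1.81 CPM early and between 0 and 3.00 CPM late, with medians of 0.121 and 1.05 CPM and a difference of 1.94 (SE 0.43). The lipid droplet gene Cidec had a difference of 2.03 (SE 0.36), leptin (Lep) 2.28 (SE 0.45), resistin (Retn) 1.90 (SE 0.52), adipsin (Cfd) 1.94 (SE 0.30) and Plin4 1.46 (SE 0.23).

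Fabp4, a fatty acid carrier of fat cells, macrophages and capillary endothelium, was the most abundant of these 8 genes. It was at 4.86 to 23.2 CPM in early tumors and 19.97 to 47.2 CPM in late tumors, with medians of 15.4 and 25.1 CPM and a log2 difference of 0.94 (SE 0.13). Late tumors were above early tumors without overlap in 4 treatments, the exception being aPD1 + aGMCSF + aIL2RB. Stearoyl-CoA desaturase (Scd1) was at medians of 241 CPM early and 235 CPM late, Pnpla2 at 31.5 and 34.7 CPM and Acsl1 at 29.95 and 24.96 CPM. The sum over the 26 genes was 324 to 467 CPM early and 322 to 527 CPM late, and was carried largely by Scd1. The list median was 0.24. Ucp1 and Cidea, which mark brown fat, had at most 4 counts and 1 count per tumor.

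Globin genes were higher in late tumors on average but rested on fewer tumors. Of 19 erythroid genes 18 were in the count table and 8 passed the filter, 5 with a positive and 3 with a negative difference. Hbb-bs (chromosome 7, 103826534 to 103828096), a beta-globin, ranged from 5.76 to 279 CPM early with a median of 12.1 CPM and from 11.0 to 360 CPM late with a median of 36.7 CPM. Its log2 difference was 1.65 (SE 0.45). Single tumors stood far from their groups, aPD1 replicate 3 at 279 CPM among the early and aPD1 + aGMCSF + aIL2RB replicate 11 at 360 CPM among the late tumors, and the difference was 2.18 without the first and 1.19 without the second. The alpha-globin Hba-a2 had a difference of 1.55 (SE 0.44), Hbb-bt one of 1.56 (SE 0.47), and Alas2, the erythroid enzyme that begins heme synthesis, one of 0.99 (SE 0.37). Hba-a1 is nearly identical to Hba-a2, so the division of reads between them is uncertain, and its counts stayed at or under 24.

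Heme and iron genes with wider use showed small differences, -0.15 (SE 0.04) for the heme-forming enzyme Fech and 0.07 (SE 0.05) for the mitochondrial iron carrier Slc25a37. Gata1, a transcription factor of erythroid precursors, had at most 2 counts per tumor. The sum over the list ran from 194 to 851 CPM early and from 198 to 1160 CPM late, with medians of 218 and 273 CPM. The list median of 0.53 was 0.33 without aPD1 + aGMCSF + aIL2RB replicate 11 and 0.05 to 0.07 without isotype control replicate 1, 2, 4 or 5. Haptoglobin (Hp), the plasma protein that binds free hemoglobin, had the largest upward difference of all genes with a mean of at least 1 log2 CPM and the same direction in all 5 treatments. Hp was at 0.360 to 5.58 CPM early and 4.90 to 25.04 CPM late, a difference of 1.88 (SE 0.21), and 17 of 20 late tumors exceeded every early tumor. Hp is made by liver, fat and epithelium as well.

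The other genes among the 10 highest were Plin4, Hbb-bs, Hba-a2 and Fabp4, described above, the secreted carbonic anhydrase Car6 at 1.31 (SE 0.14), the corneodesmosome gene Cdsn at 1.04 (SE 0.13), the cysteine synthesis gene Cth at 0.89 (SE 0.15), and 2 noncoding RNAs. These were Rpph1, the RNA subunit of ribonuclease P, at 1.02 (SE 0.24) and Gm26917 at 0.90 (SE 0.18), the latter at 269 to 847 CPM early and 519 to 4626 CPM late. Car6 had 15 of 20 late tumors above every early tumor.

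Stromal genes had small differences. All 24 fibroblast and matrix genes were tested, 8 had a positive and 16 a negative difference, and none was past 2-fold, with a list median of -0.11. Among all genes tested 48.52% had a positive difference, 8.01% were lower and 8.82% higher in all 5 treatments. The members with 1 direction in all 5 treatments are named below as a description. The collagen genes Col1a1 and Col1a2 had differences of 0.08 (SE 0.14) and 0.04 (SE 0.15), with Col1a1 at 217 to 866 CPM early and 288 to 1280 CPM late. Lower in all 5 treatments were the receptor Pdgfra at -0.31 (SE 0.07), Col6a1 at -0.32 (SE 0.09), Col6a3 at -0.16 (SE 0.04) and fibrillin (Fbn1) at -0.29 (SE 0.05). Mfap5, a microfibril protein of connective tissue fibroblasts, was the 1 gene higher in all 5, at 0.31 (SE 0.11). The summed level was 7852 to 14121 CPM early and 6355 to 13764 CPM late, but the levels differed between treatments as well. Within isotype control the 3 late tumors, at 6355 to 7396 CPM, were below both early tumors, at 9224 and 11104 CPM. Late tumors also lay below early tumors without overlap in aPD1 + aGMCSF, at 8818 to 9375 against 9914 to 11344 CPM, and in aPD1 + aIL2RB, at 9365 to 11571 against 12572 to 13983 CPM. The sets overlapped in aPD1 and in aPD1 + aGMCSF + aIL2RB. The list median turned to 0.01 when the aPD1 + aGMCSF group was left out.

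T cell genes were lower in late tumors on average, and by unequal amounts in the 5 treatments. All 20 genes were tested and all had a negative difference, between -0.83 and -1.14, with a median of -1.01. Of these genes 2, Trbc1 and Cd6, were at least 2-fold lower in the same direction everywhere. The shares over all genes tested were 48.52% with a positive difference and 0.608% at least 2-fold lower in that way. The T cell receptor subunit gene Cd3e was at 1.05 to 13.1 CPM early and 0 to 15.1 CPM late, a log2 difference of -0.98 (SE 0.29), and the ranges overlapped. The median difference over the list was 0.16 in aPD1, -0.51 in isotype control, -0.57 in aPD1 + aGMCSF, -0.72 in aPD1 + aIL2RB and -2.60 in aPD1 + aGMCSF + aIL2RB. With replicate number as a block, a fit that rests on numbers 3 to 6, the list median was 0.0136. Without the aPD1 + aGMCSF + aIL2RB group the list median was -0.51. In that group the summed level was 28.9 to 147 CPM in the 6 early tumors and 3.80 to 11.7 CPM in the 5 late tumors, without overlap. In aPD1 it was 142 to 267 CPM in the early and 161 to 245 CPM in the late tumors.

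**Figure D2:**
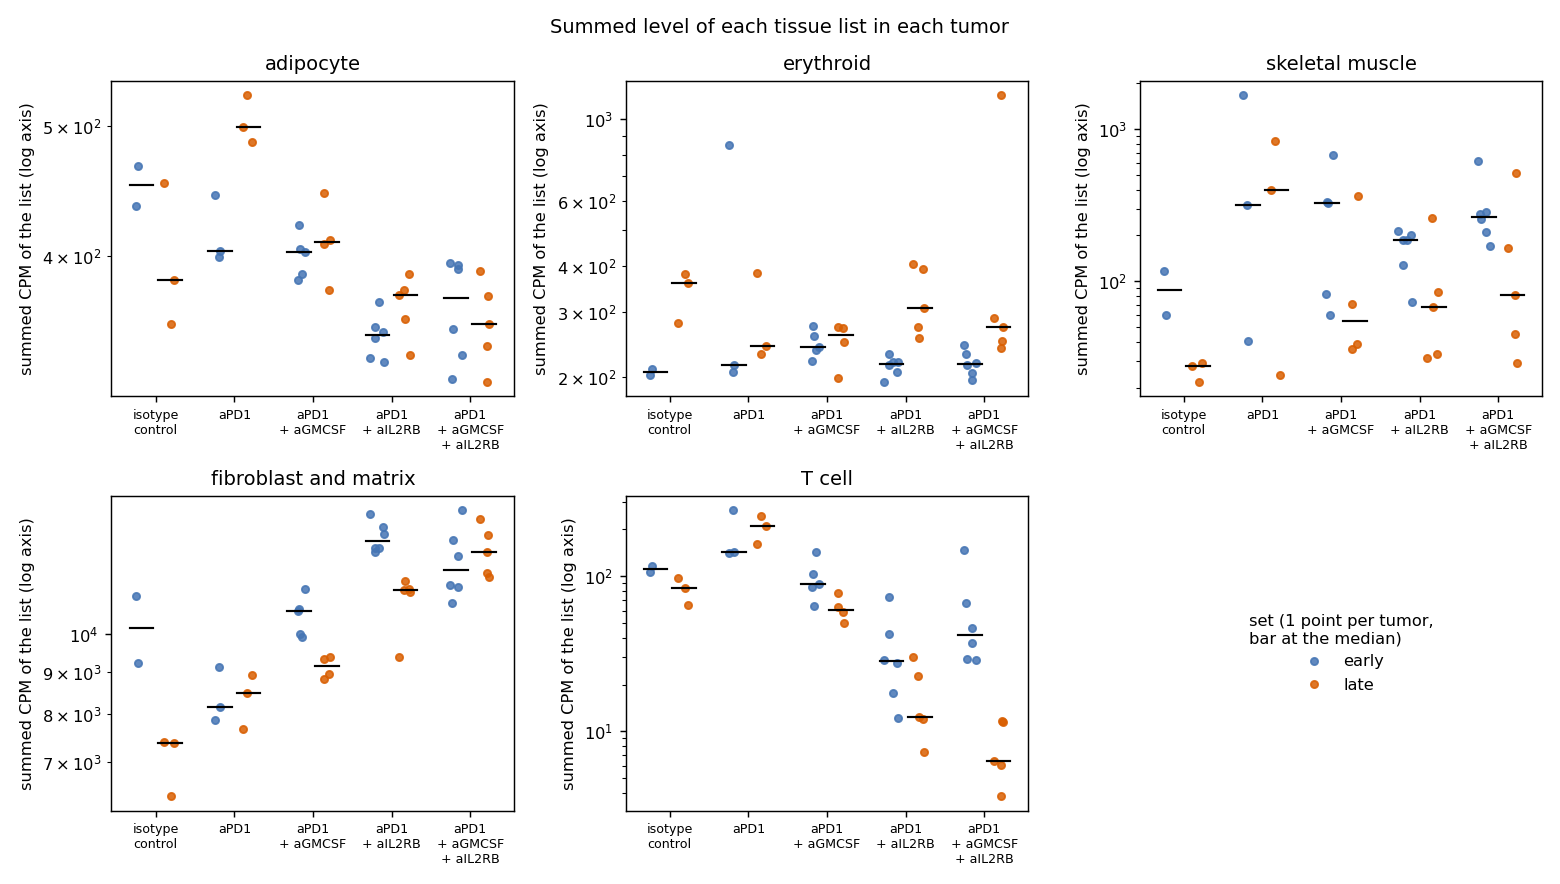
Summed CPM of the adipocyte, erythroid, skeletal muscle, fibroblast and matrix, and T cell lists in each tumor, on log axes, by treatment and set, with 1 point per tumor and a bar at the median. The late muscle median is lower in 4 treatments and higher in aPD1, and T cell levels part most in aPD1 + aGMCSF + aIL2RB, where late tumors lie between 3.80 and 11.7 CPM. The sums also hold genes with wider use, such as Scd1 in the adipocyte list, and need not read tissue content.

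Other immune lists had smaller median differences on average, with values that went both ways across treatments. Cytotoxic and NK cell genes had a median of -0.50, with 13 of 14 lower and 3 lower in all 5 treatments. Of all genes tested 48.52% had a positive difference and 8.01% were lower in all 5. The cytotoxic and NK cell median was -2.03 in aPD1 + aGMCSF + aIL2RB and 0.35 in aPD1. There was a median of -0.30 for B and plasma cell genes over 10 tested of 15. Jchain, which joins secreted antibody chains, was at -1.78 (SE 0.48), while the IgM heavy chain gene Ighm was at 0.02 (SE 0.10) and Cd79a at -0.44 (SE 0.27). Mast cell genes had a median of -0.87 over 8 tested of 10, with the proteases Cpa3 and Cma1 both at -1.04 (SE 0.296 and 0.305) and lower in all 5 treatments. Their median was -2.21 in aPD1 + aGMCSF + aIL2RB. Macrophage genes had a median of -0.08, at 0.40 in aPD1 and -0.54 in aPD1 + aGMCSF + aIL2RB, and dendritic cell genes one of -0.22. Cxcl13, a chemokine that attracts B cells, was at 4.53 to 106 CPM early and 0.706 to 85.3 CPM late, a difference of -1.72 (SE 0.25), and the IL-18 receptor gene Il18r1 at -1.19 (SE 0.22).

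Cell cycle genes had a median of 0.08 over 18 genes, hypoxia and glycolysis genes one of -0.0007 over 16, and cholesterol synthesis genes one of -0.10 over 12. Of 8 heat shock genes 5 were higher in all 5 treatments, with a median of 0.21, among them the chaperones Hspa1a at 0.57 (SE 0.22), Hspa1b at 0.55 (SE 0.18) and Hsph1 at 0.49 (SE 0.08). Hspb1 went the other way, at -0.59. Hsph1 lay between 159 and 301 CPM early and between 226 and 490 CPM late. All 13 mitochondrially encoded genes had a negative difference, with a median of -0.16, and 5 were lower in all 5 treatments. Over all genes tested 8.82% were higher and 8.01% lower in all 5.

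**Figure D3:**
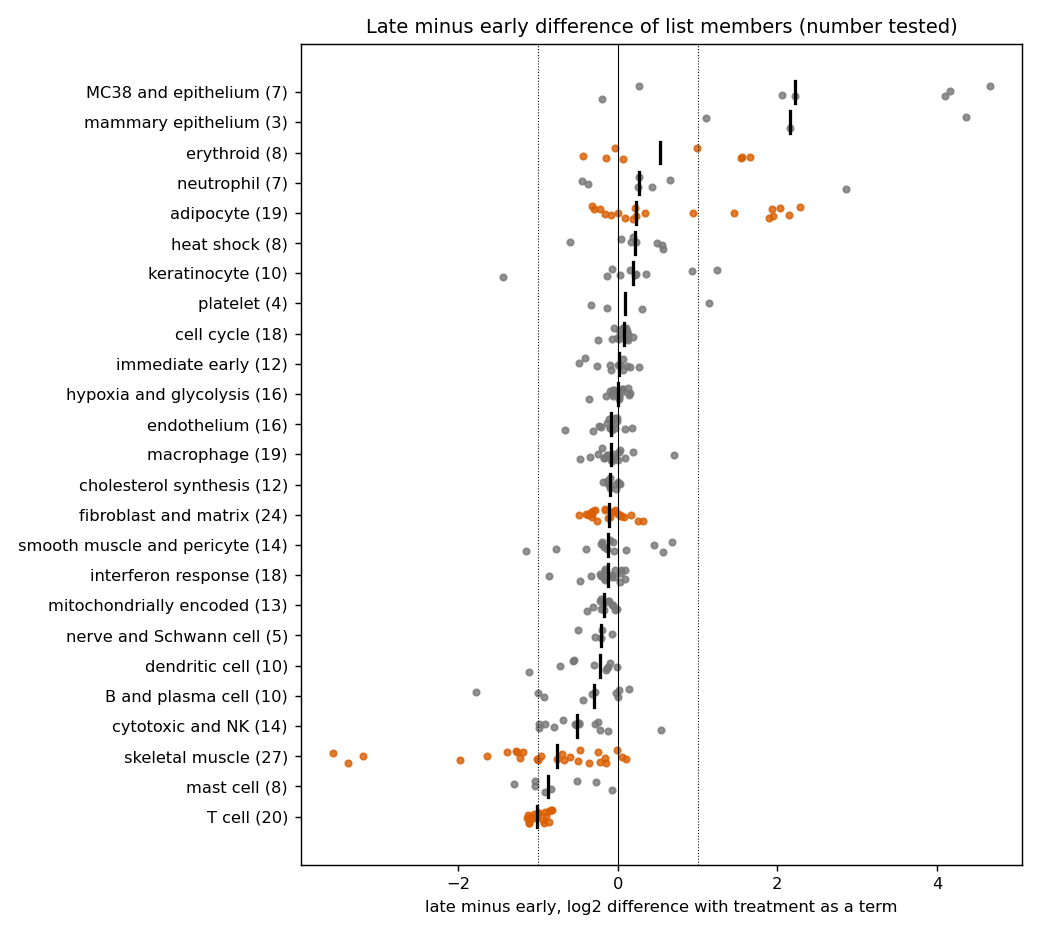
Late minus early log2 difference of every tested member of 25 gene lists, with treatment as a term, each point a gene and each bar the list median, with dotted lines at 2-fold and the 5 main tissue lists in orange. The T cell members lie together around their median of -1.01. Epithelial, mammary and several adipocyte members passed the filter on low counts mainly through the late tumors, and some scarce muscle members mainly through the early tumors. This bears on the place of their lists.

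The 2 genes with all late tumors below all early tumors in every treatment were Hspa12a and Mical2, named after their values were seen. Hspa12a, a distant relative of the HSP70 chaperones, was at 22.7 to 58.2 CPM early and 13.6 to 24.6 CPM late, a log2 difference of -0.93 (SE 0.09). Of 20 late tumors 18 were below every early tumor. Mical2, an enzyme that oxidizes actin, was at 91.8 to 139 CPM early and 71.4 to 115 CPM late, a difference of -0.36 (SE 0.03). These are abundant genes with small spread, unlike the keratins. Leaving out aPD1 replicate 3 gave 7 genes above and 5 below in every treatment, and leaving out aPD1 replicate 6 gave 5 below. Scaling by library size alone gave 4 below, and with all genes of at least 5 counts in total, which also changes the scaling factors, no gene was below in every treatment, with log2 differences of -0.92 for Hspa12a and -0.35 for Mical2.

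Whether the late minus early difference itself varied with treatment was tested by the interaction of treatment and set, a contrast that does not use the average difference but takes the division as given. Because the division was chosen on the expression values of these same tumors, the p-values of this test do not account for that choice. By edgeR's quasi-likelihood F-test on 4 terms, 809 genes passed at a Benjamini-Hochberg adjusted p under 0.05, which is 4.78% of those tested. In 443 of them the aPD1 + aGMCSF + aIL2RB group lay farthest from the median of the 5 treatments, in 239 aPD1, in 84 isotype control, in 35 aPD1 + aIL2RB and in 8 aPD1 + aGMCSF. The count depended on single tumors. It was 454 to 525 without aPD1 replicate 2, 3 or 6 or aPD1 + aGMCSF + aIL2RB replicate 1, 318 to 363 without aPD1 replicate 4 or aPD1 + aGMCSF + aIL2RB replicate 8, 9 or 11, and 1324 without aPD1 replicate 1. DESeq2 called 1536 genes, 805 of them among the 809. With replicate number as a block no gene passed.

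Of the 20 T cell genes 8 passed, against 4.78% of all genes tested. None of the 27 muscle genes passed, a number too small to set apart from that share. The coreceptor gene Cd8a was at 3.25 to 25.6 CPM in early and 0 to 1.198 CPM in late aPD1 + aGMCSF + aIL2RB tumors, and at 23.7 to 48.2 and 26.9 to 43.2 CPM in aPD1 tumors. Its late minus early difference of mean log2 CPM was -3.74 in the first and 0.14 in the second group (edgeR interaction, adjusted p = 0.015, at most 0.0451 without any single tumor). Zap70, a kinase of T cell receptor signaling, gave -2.98 and 0.11 (edgeR adjusted p = 0.015). The result was less firm for Cd3e (edgeR adjusted p = 0.0405), which lost the call in 14 of 42 fits without a single tumor, with an adjusted p of 0.0987 without aPD1 + aGMCSF + aIL2RB replicate 1. Cd3d, Cd3g, Cd2 and Cd6 also passed, with edgeR adjusted p between 0.0332 and 0.0411, and lost the call in 8 to 13 of the fits without a single tumor.

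H2-Aa, H2-Eb1 and Ciita were named after their values were seen, and only Ciita is in a list, that of interferon response. H2-Aa, the class II alpha chain, was at 147 to 528 CPM in early and 12.8 to 73.2 CPM in late aPD1 + aGMCSF + aIL2RB tumors, without overlap, and at 558 to 764 and 460 to 820 CPM in aPD1 tumors. The differences were -3.24 and -0.01 (edgeR interaction, adjusted p = 0.00378). H2-Eb1 gave -3.28 and -0.01 (edgeR adjusted p = 0.00415), and Ciita, which switches these genes on, -2.99 and 0.14 (edgeR adjusted p = 0.00438). Of the 19 macrophage genes 11 passed, again against 4.78% of all genes. Among the 10 genes with the smallest p were the monocyte and macrophage membrane genes Ms4a7 and Ms4a14 and the myeloid receptors Cd300a and Cd300lb. Ms4a7 was higher late by 0.51 in aPD1 and lower late, at -0.96, in aPD1 + aGMCSF + aIL2RB, and Cd300a was at 0.52 and -1.24 (edgeR adjusted p = 0.00282 for both). Interferon response genes passed in 8 of 18 cases (4.78% of all genes), and their median was 0.45 in aPD1, 0.18 in aPD1 + aIL2RB, -0.25 in aPD1 + aGMCSF, -0.29 in aPD1 + aGMCSF + aIL2RB and -0.34 in isotype control.

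**Figure D4:**
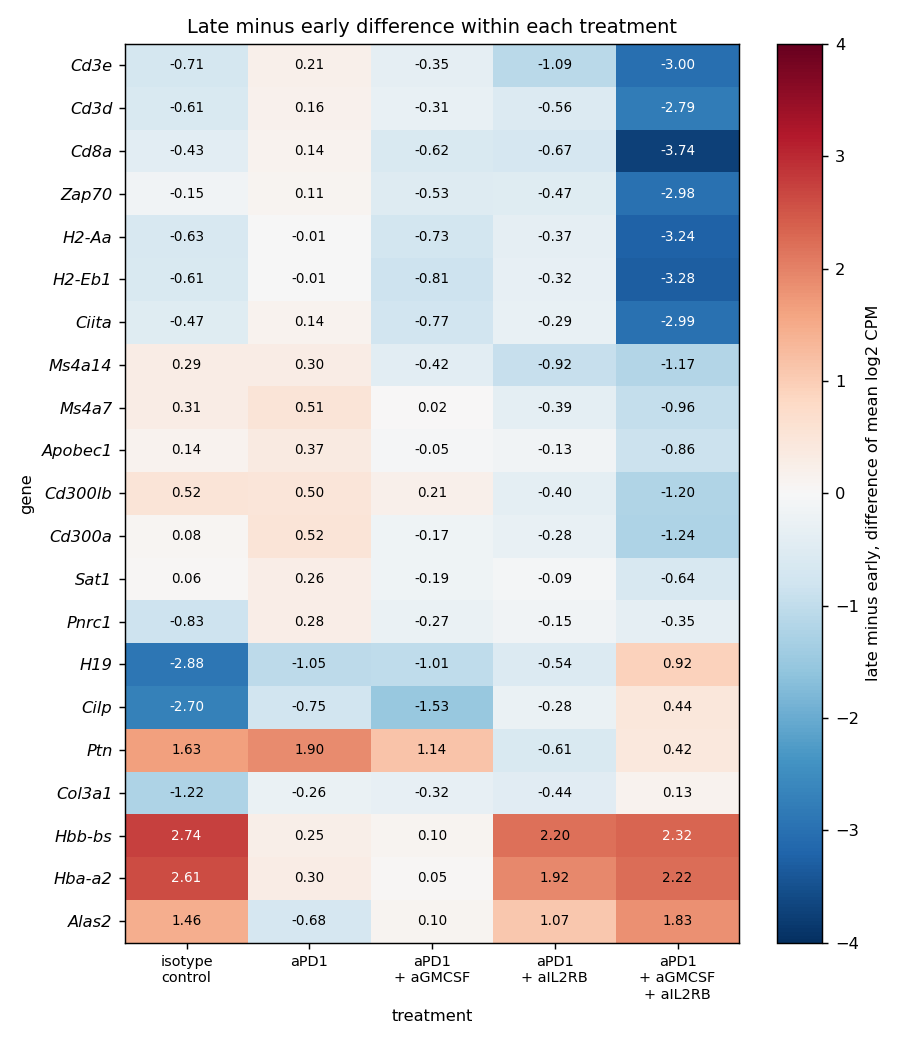
Late minus early difference of mean log2 CPM within each of the 5 treatments (columns) for 21 genes (rows) whose difference varied with treatment, printed in each cell and colored from blue (lower late) to red (higher late). The T cell genes shown, H2-Aa, H2-Eb1 and Ciita are lowest in aPD1 + aGMCSF + aIL2RB, where Cd8a is at -3.74, and the globin gene Hbb-bs is highest in isotype control, at 2.74.

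Other genes of the interaction differed most in other treatments. H19, an imprinted noncoding RNA, was at 125 and 129 CPM in the 2 early and 16.9 to 17.5 CPM in the 3 late isotype control tumors, but at 46.4 to 163 and 120 to 254 CPM in aPD1 + aGMCSF + aIL2RB tumors (differences of -2.88 and 0.92, edgeR adjusted p = 0.000522). The matrix gene Cilp was likewise lowest in isotype control and highest in aPD1 + aGMCSF + aIL2RB, at -2.70 and 0.44 (edgeR adjusted p = 0.00282), as was Col3a1, a fibrillar collagen, at -1.22 and 0.13 (edgeR adjusted p = 0.00438). The growth factor gene Ptn was higher late by 1.63 in isotype control and 1.90 in aPD1 and at -0.61 in aPD1 + aIL2RB (edgeR adjusted p = 0.00282). Hbb-bs was higher late by 2.74 in isotype control, 2.20 in aPD1 + aIL2RB and 2.32 in aPD1 + aGMCSF + aIL2RB and by 0.25 in aPD1 and 0.10 in aPD1 + aGMCSF (edgeR adjusted p = 0.0302), and without aPD1 replicate 3 its adjusted p was 0.0822.

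Whether the 5 tissue lists varied together from tumor to tumor was examined on deviations from the mean of the same treatment and set, which removes the late minus early difference. The score of a list was the mean log2 CPM of its tested members, which weights scarce and abundant genes alike and can run against the sum. aPD1 + aIL2RB replicate 9 had the lowest fibroblast and matrix sum of its treatment and set but the highest score (0.31 above the mean), and aPD1 replicate 3 likewise (0.41). The p-values came from 100000 permutations within treatment and set, two-sided and adjusted over 10 pairs of lists. Adipocyte and fibroblast scores varied together (Pearson r = 0.61, permutation p = 0.00113, adjusted p = 0.0113, n = 42), with a Spearman rho of 0.51 (permutation p = 0.00659, adjusted p = 0.0549). The coefficient r was 0.55 in the 22 early and 0.72 in the 20 late tumors and 0.49 without the 2 tumors farthest from the median adipocyte score. Fibroblast and T cell scores gave r = 0.47 (permutation p = 0.0095, adjusted p = 0.0475) and rho = 0.44 (permutation p = 0.0110, adjusted p = 0.0549), with r = 0.37 early, 0.68 late and 0.46 without the 2 farthest tumors. The latter pair lost the call in 23 of 42 analyses without a single tumor, and the former in 2, without aPD1 + aIL2RB replicate 9 (adjusted p = 0.0709) or aPD1 + aGMCSF + aIL2RB replicate 1 (adjusted p = 0.0517).

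The other 8 pairs did not pass. Erythroid and skeletal muscle scores had r = 0.49 (permutation p = 0.0680, adjusted p = 0.170) and rho = 0.43 (permutation p = 0.0233, adjusted p = 0.0775), with r = 0.80 early and 0.21 late, and r = 0.31 without aPD1 replicate 3, which held the highest early muscle and globin levels. Adipocyte and skeletal muscle scores had r = 0.26 (permutation p = 0.179, adjusted p = 0.298). Adipocyte and erythroid scores had r = 0.14 (permutation p = 0.649, adjusted p = 0.649), with 0.54 early and -0.36 late. Adipocyte and T cell scores had r = 0.32 (permutation p = 0.0273, adjusted p = 0.0911), and r = 0.53 when only members with a mean of at least 0 log2 CPM were scored (permutation test, adjusted p = 0.00115). This pair also passed without aPD1 replicate 1 or without aPD1 replicate 3 (permutation tests, adjusted p = 0.0368 and 0.0157).

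**Figure D5:**
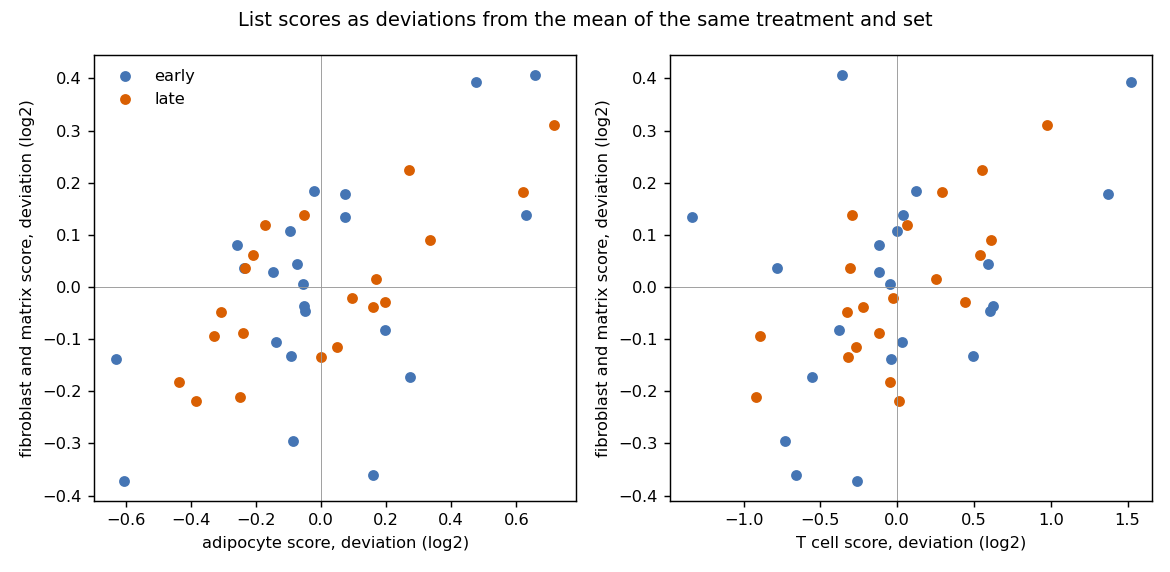
Fibroblast and matrix score against adipocyte score (left) and T cell score (right) in 42 tumors, each as a log2 deviation from the mean of the same treatment and set, with early tumors in blue and late tumors in orange. Both clouds tilt upward, at r = 0.61 and r = 0.47.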

How the data were processed

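Poly(A) RNA-seq libraries of 42 tumors were aligned by the authors with Bowtie 1.2.3 to transcriptomes of the Collaborative Cross founder strains (GRCm38), and quantified with gbrs. The deposited values are expected counts per gene, estimated by the authors and not normalized, of which 15.2% are not whole because shared reads were divided. Counts were rounded, and genes were kept by edgeR's filterByExpr over the 5 treatments (minimum count 10, minimum total 15), leaving 16932 of 26811. Symbols and coordinates came from a GENCODE annotation of GRCm38.

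TMM normalization and a quasi-likelihood model with treatment and set gave log2 differences and SE (edgeR 4.0.16, R 4.3.3). CPM used TMM-scaled library sizes, and log2 CPM a prior count of 2. The interaction added 4 terms. Scripts were tested on simulated data. Scores, permutations and figures used Python 3.11.15, numpy 2.4.6, pandas 2.3.3, scipy 1.17.1 and matplotlib 3.10.9. Alternatives were other normalizations and filters, DESeq2 1.42.0, a prior count of 0.5, exclusion of the 5 rRNA genes, of single tumors or of treatments, a model without treatment, and replicate number as a block.

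The members and the 25 gene lists were chosen with earlier results of these data known. Named genes are members of the 5 main lists, the 10 highest and 10 lowest differences with a mean of at least 1 log2 CPM and the same direction in all treatments, the 10 smallest interaction p-values, and up to 3 members of other lists. Others were named after their values were seen, and some members are not reported here. No pair of tumors had identical counts, and the closest pair of the same treatment and set had a chi-square of 5.38 per degree of freedom, where sampling noise alone gives about 1. P-values measure the spread between tumors from separate mice.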

Additional observations from a re-analysis of the deposited data

Results flagged for a closer look

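Isotype control and aPD1 sets, with at most 3 tumors each, were too small to be examined for single tumors that stood apart, so aPD1 replicate 3 could not be flagged. In the other treatments the level of a list or gene in 1 tumor stood apart from the other 3 to 5 tumors of the same treatment and set in 16 of 66 cases examined. Chance alone marks about 1 in 20 for normally distributed values, which skewed sums and low counts need not follow. For the erythroid list this was aPD1 + aGMCSF + aIL2RB replicate 11, a late tumor, at 1160 CPM, with the next tumor at 289 CPM. For skeletal muscle it was aPD1 + aGMCSF replicate 8 at 362 CPM, aPD1 + aIL2RB replicate 11 at 261 CPM and aPD1 + aGMCSF + aIL2RB replicate 7 at 511 CPM among late tumors, and aPD1 + aGMCSF + aIL2RB replicate 1 at 612 CPM among early tumors. The last of these also had the highest T cell sum of the 6 early tumors of its treatment, at 147 CPM. The low value for fibroblast and matrix was the sum of aPD1 + aIL2RB replicate 9, at 9365 CPM, whose mean log2 score was the highest of its treatment and set.

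The same late tumor, aPD1 + aIL2RB replicate 9, had the highest epithelial values of the 5 late tumors of its treatment, with Krt8 at 7.83 CPM, Krt18 at 4.27 CPM, Krt19 at 7.97 CPM and Prlr at 4.27 CPM. Among early tumors aPD1 + aIL2RB replicate 2 stood apart at 0.319 CPM for Krt8, 0.266 CPM for Krt18 and 0.479 CPM for Prlr, aPD1 + aGMCSF + aIL2RB replicate 3 at 0.196 CPM for Krt8, and aPD1 + aGMCSF + aIL2RB replicate 1 at 0.105 CPM for Prlr, each of them only a few counts.

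A difference between late and early tumors that varied with treatment, tested by edgeR's interaction, marked the following genes by their adjusted p. H19 and Sat1 were at 0.000522, and Cilp, Pnrc1, Ms4a14, Ms4a7, Apobec1, Ptn, Cd300lb and Cd300a at 0.00282. The class II genes H2-Aa, H2-Eb1 and Ciita were at 0.00378, 0.00415 and 0.00438. Of the adipocyte list Pnpla2 was at 0.0234, Acsl1 at 0.0416 and Cebpa at 0.00622. Of the erythroid list Hba-a2 was at 0.0399, Hbb-bs at 0.0302, Hbb-bt at 0.0202 and Alas2 at 0.0428. Of the fibroblast and matrix list Col3a1 was at 0.00438, Col5a1 at 0.0432 and Ogn at 0.0150. Of the T cell list Cd3e was at 0.0405, Cd3d at 0.0332, Cd3g at 0.0411, Cd8a at 0.0150, Cd2 at 0.0402, Cd6 at 0.0405 and Zap70 at 0.0150. Cxcl13 was at 0.0379 and Il18r1 at 0.0332. Several calls were lost in many of the 42 fits without a single tumor, Col5a1 in 22, Alas2 in 19, Acsl1 in 16, Cd3e in 14, Hba-a2 and Cd3g in 13, Cd6 and Cxcl13 in 12, Cd2 in 11 and Cd3d in 8.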

How the results depend on the processing

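Replicate numbers did not pair the tumors as a whole, but the check used cannot exclude pairing for some numbers. Deviations from the mean of the same treatment and set correlated at a median of 0.0098 between 67 pairs of tumors with the same number and -0.0063 between 623 pairs with different numbers. The 67 ranged from -0.43 to 0.351, and 12 of them were over 0.1. With replicate number as a block the late minus early difference rests on numbers 3 to 6, the ones that fall in different sets in different treatments. The block gave 100 genes at least 2-fold higher (49 of them among the 55) and 132 lower (69 of them among the 103), list medians of -0.15 for erythroid, 0.18 for fibroblast and matrix and 0.0136 for T cell genes, and no gene for the interaction (edgeR, 1933 genes at an unadjusted p under 0.05, 3621 without the block, 1536 genes by DESeq2 without the block). All 32 genes named for the interaction lost the call under the block.

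With a total of at least 5 counts 203 genes were at least 2-fold higher and 435 lower, and no gene was separated downward, and with at least 10 counts in every tumor the counts were 4 and 6 and no gene was separated upward. Without the aPD1 group 165 genes were lower, 21 were separated upward and 7 downward, without aPD1 + aGMCSF + aIL2RB 7 and 7, and without aPD1 + aGMCSF or aPD1 + aIL2RB 6 downward. By library size alone 4 were separated downward. DESeq2 called 1536 interaction genes. Leaving out single tumors gave 49 to 62 genes higher, 79 to 122 lower, 4 to 7 separated upward, 2 to 5 downward and 318 to 1324 interaction genes.

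Fibroblast and T cell scores gave r = 0.42 by library size alone and r = 0.44 with members of at least 0 log2 CPM, both short of the threshold (permutation tests, adjusted p = 0.0640 and 0.0585), and adipocyte and T cell scores gave r = 0.53 with those members. Without single tumors r ranged from 0.52 to 0.68 for adipocyte and fibroblast, 0.36 to 0.58 for fibroblast and T cell, 0.24 to 0.40 for adipocyte and T cell, -0.19 to 0.32 for adipocyte and erythroid and -0.21 to 0.31 for erythroid and fibroblast scores, the low values of the last 2 without aPD1 replicate 3. The causes were not tested. Depth limits the scarce genes, since Krt8 in early tumors rests on at most 8 counts per tumor.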
